A study of Mus musculus with 20 samples.

Results

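The genes described here encode the subunits of NF-kB and the IkB proteins that hold it back or work with it in the nucleus. The list held 10 mouse genes: Nfkb1, Nfkb2, Rel, Rela, Relb, Nfkbia, Nfkbib, Nfkbie, Nfkbiz and Bcl3. Each was represented by the probe set that the platform annotation assigns to its symbol. Of the 10 genes, 9 had such a probe set, exactly 1 each, among 17771 genes with a probe set of a single symbol. Nfkb1 had none under this rule and was not analysed here.

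Mouse bone marrow was cultured into eosinophils, and messenger RNA was measured on day 12. The cells came from 5 wild-type mice (Dusp5+/+) and 5 knockout mice (Dusp5-/-), and both genotypes were handled alike. Cells of each mouse were kept in medium only, called untreated here, or given 25 ng/ml of the cytokine IL-33 for 4 hours. This gave 4 groups of 5 one-colour arrays, 20 in all. The product of Dusp5 is a phosphatase of the nucleus that switches off the MAP kinases ERK1 and ERK2. Eosinophils are granulocytes of allergic inflammation and carry the receptor for IL-33, an alarm cytokine released by damaged barrier tissue. The knockout is a deletion in the animal, so the cells lacked Dusp5 throughout culture and not only during stimulation. The sources used here give neither strain nor age of the mice.

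NF-kB is a family of dimeric transcription factors built from RelA, c-Rel, RelB and the processed products of Nfkb1 and Nfkb2. In resting cells the classical IkB proteins (IkB-alpha, IkB-beta and IkB-epsilon, from Nfkbia, Nfkbib and Nfkbie) hold dimers in the cytoplasm. Receptors of the IL-1 and IL-33 type activate the IkB kinase complex, which phosphorylates these IkBs and so marks them for ubiquitination and degradation. The freed dimers switch on target genes through kB sites in DNA, and several of those targets are NF-kB and IkB genes themselves. The atypical IkBs made by Nfkbiz (IkB-zeta) and Bcl3 act in the nucleus, where they bind NF-kB subunits on DNA and change which target genes are transcribed.

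Because feedback within the family is known to run through kB sites, the start-site regions of the members were searched for the 10-base kB consensus on both strands. The sequences are RefSeq promoter windows of assembly GRCm38.p6, and the 250 bases before each start site were searched. The table held 7 of the 9 members and not Relb or Nfkbiz. A match was present in 4 of these 7, Rel, Nfkbia, Nfkbie and Nfkb2, and some genes have several start sites. Counted by window, 6 of the 9 windows of these members held a match, 3 of them those of Nfkb2, against 1281 of 32851 windows of the same length in the whole table (3.9%). The windows of Rela, Nfkbib and Bcl3 held no match, which says only that these letters are not in these windows. The stretches around the matches are printed 5′ to 3′ on the strand of the gene, with the matched bases in capitals.
Nfkbia: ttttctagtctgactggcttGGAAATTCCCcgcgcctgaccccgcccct
Nfkb2: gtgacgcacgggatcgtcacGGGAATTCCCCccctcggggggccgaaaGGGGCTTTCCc
Rel: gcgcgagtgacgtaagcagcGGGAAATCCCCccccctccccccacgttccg
Nfkbie: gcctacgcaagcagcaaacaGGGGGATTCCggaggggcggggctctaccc

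The Nfkbia stretch lies at chr12:55492648-55492696 on the minus strand, and its match spans bases 29 to 20 before the start site. The Nfkb2 stretch lies at chr19:46304678-46304736 on the plus strand and precedes the first of the 3 start sites in the table. It holds a pair of overlapping matches that start 39 and 38 bases before that start site, and a further match from 11 to 2 bases before it. The windows of the other 2 start sites of Nfkb2 each held a match as well. The Rel stretch lies at chr11:23771031-23771081 on the minus strand, with overlapping matches that start 92 and 91 bases before the start site. The Nfkbie stretch lies at chr17:45555574-45555623 on the plus strand, with its match from 106 to 97 bases before the start site. Of all windows, 0.493% held 2 or more matches. No binding was measured here, so a match is a description of the DNA and not a site shown to be used.

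The arrays followed their labels. Dusp5 itself had a log2 level of 8.15 ± 0.26 in untreated wild-type cells and 9.77 ± 0.35 after IL-33 (mean ± SD, n = 5 mice, as for all group levels below). In knockout cells it was 4.40 ± 0.31 and 4.95 ± 0.18, and the highest knockout array, at 5.15, lay below the lowest wild-type array, at 7.85. The knockout signal stayed above the 40th percentile of each array. It rose by 0.56 ± 0.17 with IL-33 (SE, limma adjusted p = 0.00810), and the source of this signal was not tested. Median log2 values per array lay between 4.25 and 4.32, and arrays of a group correlated at 0.987 to 0.997. Genes above the 40th percentile of an array (3.56 to 3.68) on 5 or more arrays were tested, which 11766 genes and all 9 members met. The members were above that percentile on all 20 arrays, so their values did not depend on the filter. With 5 arrays per group, their number sets how precise a value can be.

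IL-33 raised the messenger RNA of all 9 measured members in both genotypes. The largest rise was that of Nfkbiz, 55.8-fold in wild-type and 76.7-fold in knockout cells, and the smallest was that of Rela, 1.21-fold and 1.23-fold. Between these ends stood Nfkbia, Relb, Nfkb2 and Bcl3, which rose 5.71-fold to 6.49-fold over both genotypes, then Rel, Nfkbie and Nfkbib. In wild-type cells 9 of 9 members passed limma's adjusted p of 0.05 upwards and 0 downwards. Over all genes tested in that comparison 42.7% passed, 16.1% upwards and 26.7% downwards. In knockout cells again 9 of 9 rose, against 52.2% of all genes called, 18.9% upwards and 33.2% downwards. The members had a median log2 change of 2.51 (wild type) and 2.54 (knockout), beside -0.05 and -0.08 over all genes. In bulk samples such as these, fewer cells of a type and less RNA per cell cannot be told apart.

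**Figure D1:**
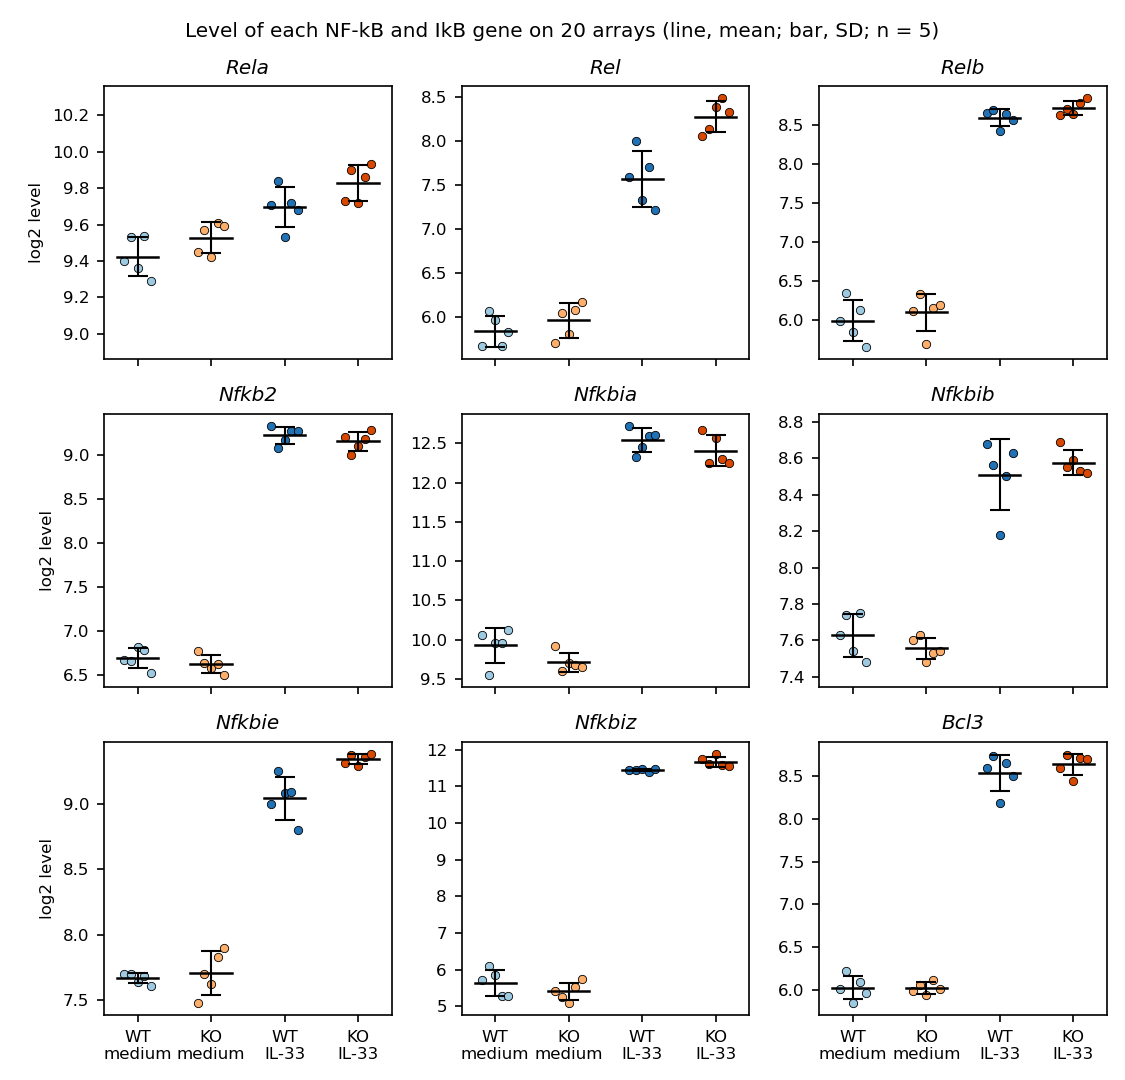
Log2 level of each of the 9 measured members (y axis) in the 4 groups (x axis), 1 panel per gene, with 1 point per mouse, a line at the group mean and a bar of 1 SD (n = 5). The mean of each IL-33 group lies above that of the untreated group of its genotype in all panels, with overlapping wild-type arrays for Rela, and Rel, Nfkbie and Nfkbiz are the panels in which all 5 knockout IL-33 arrays lie above all 5 wild-type IL-33 arrays.

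Among the DNA-binding subunits, Rela, which encodes the main activating subunit RelA, changed least. Its untreated log2 levels were 9.40, 9.53, 9.36, 9.54 and 9.29 in wild-type mice 1 to 5 and 9.45, 9.57, 9.42, 9.61 and 9.59 in knockout mice 1 to 5. After IL-33 they were 9.71, 9.84, 9.53, 9.72 and 9.68 in wild-type and 9.73, 9.90, 9.72, 9.86 and 9.93 in knockout cells. The wild-type groups overlapped, because the lowest IL-33 array (9.53) lay just under the highest untreated array (9.54), whereas the knockout groups did not. Each mouse on its own showed a rise, from 0.17 to 0.40 in wild-type and from 0.25 to 0.34 in knockout mice. The fitted change was 0.28 ± 0.07 (SE, limma adjusted p = 0.00388) in wild-type and 0.30 ± 0.07 (adjusted p = 0.00142) in knockout cells. In order of size these were rises 1661 and 1752 of the 11766 genes.

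Rel, which encodes c-Rel, a subunit best known from lymphocytes and macrophages, rose in both genotypes and reached the higher level in knockout cells. Its untreated log2 levels were 5.66, 6.06, 5.96, 5.66 and 5.82 in wild-type mice 1 to 5 and 5.70, 6.04, 5.80, 6.07 and 6.17 in knockout mice 1 to 5. After IL-33 they were 7.59, 8.0, 7.32, 7.70 and 7.21 in wild-type and 8.05, 8.13, 8.38, 8.48 and 8.33 in knockout cells. The untreated groups were intermingled, and after IL-33 the lowest knockout array (8.05) stood just above the highest wild-type array (8.0). The change with IL-33 was 1.73 ± 0.13 (SE), or 3.33-fold, in wild-type and 2.32 ± 0.13, or 4.98-fold, in knockout cells. Limma gave adjusted p-values of 2.8e-09 and 2.4e-11, and the rises ranked 128 and 96 among all genes.

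Relb, whose product forms dimers mainly with the processed product of Nfkb2, rose by 2.60 ± 0.12 (SE) in wild-type and 2.61 ± 0.12 in knockout cells, 6.05-fold and 6.12-fold. Its mean level went from 6.0 ± 0.26 to 8.59 ± 0.11 in wild-type and from 6.10 ± 0.24 to 8.72 ± 0.09 in knockout cells. The untreated arrays spread from 5.66 to 6.35 and the IL-33 arrays from 8.42 to 8.84 over both genotypes, so treatments were far apart and genotypes intermingled. Limma's adjusted p for the rise was 6.3e-13 and 4.9e-13.

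Nfkb2 encodes p100, which is both the precursor of the p52 subunit and an IkB-like inhibitor of RelB. Its level rose from 6.69 ± 0.12 to 9.23 ± 0.10 in wild-type and from 6.62 ± 0.10 to 9.16 ± 0.11 in knockout cells. The change was 2.54 ± 0.07 (SE) in both, 5.81-fold and 5.80-fold, with limma's adjusted p at 7.6e-16 and 6.2e-16. Single mice rose by 2.36 to 2.75 in wild-type and 2.36 to 2.79 in knockout cells, a range that was nearly the same in both.

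Of the classical IkB genes, Nfkbia, which encodes IkB-alpha, the fast feedback inhibitor of NF-kB, rose most. Its untreated log2 levels were 10.06, 9.55, 9.95, 9.95 and 10.12 in wild-type mice 1 to 5 and 9.92, 9.60, 9.70, 9.68 and 9.65 in knockout mice 1 to 5. After IL-33 they were 12.72, 12.33, 12.45, 12.60 and 12.61 in wild-type and 12.67, 12.25, 12.57, 12.30 and 12.25 in knockout cells. Every IL-33 array stood above every untreated array, while genotypes overlapped under both treatments. The change was 2.62 ± 0.11 (SE), 6.13-fold, in wild-type and 2.70 ± 0.11, 6.49-fold, in knockout cells (limma adjusted p = 1.7e-13 and 8.8e-14).

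Nfkbib encodes IkB-beta, an inhibitor known for slower turnover than IkB-alpha. It rose from 7.63 ± 0.12 to 8.51 ± 0.20 in wild-type and from 7.56 ± 0.06 to 8.58 ± 0.07 in knockout cells. The change was 0.88 ± 0.08 (SE), 1.84-fold, and 1.02 ± 0.08, 2.03-fold (limma adjusted p = 3.5e-08 and 2.8e-09). The rises of single wild-type mice ran from 0.64 to 1.15, and those of knockout mice from 0.92 to 1.11, within the wild-type range. The probe set of Nfkbib, like that of Nfkbie, is of a kind whose probes can match more than 1 transcript, so its values are less certain to belong to a single gene.

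Nfkbie encodes IkB-epsilon, an inhibitor known to bind dimers of RelA and c-Rel. Its untreated log2 levels were 7.70, 7.70, 7.64, 7.68 and 7.61 in wild-type mice 1 to 5 and 7.48, 7.70, 7.62, 7.83 and 7.90 in knockout mice 1 to 5. After IL-33 they were 9.0, 9.25, 9.08, 9.09 and 8.80 in wild-type and 9.31, 9.37, 9.29, 9.36 and 9.38 in knockout cells. The knockout IL-33 arrays had an SD of 0.04 and all lay above the wild-type arrays, whose SD was 0.16. The change was 1.38 ± 0.08 (SE), 2.60-fold, in wild-type and 1.64 ± 0.08, 3.11-fold, in knockout cells (limma adjusted p = 3.8e-11 and 1.8e-12).

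The nuclear IkB gene Nfkbiz, whose product IkB-zeta is itself made in response to receptors of the IL-1 type, showed the largest change of the family. Its untreated log2 levels were 5.71, 6.09, 5.84, 5.29 and 5.27 in wild-type mice 1 to 5 and 5.42, 5.26, 5.10, 5.52 and 5.73 in knockout mice 1 to 5. After IL-33 they were 11.43, 11.43, 11.47, 11.40 and 11.47 in wild-type and 11.73, 11.60, 11.88, 11.58 and 11.56 in knockout cells. The untreated arrays were the scattered ones, with SDs of 0.36 and 0.24, and the wild-type IL-33 arrays had an SD of 0.03. The change was 5.80 ± 0.13 (SE) in wild-type and 6.26 ± 0.13 in knockout cells (limma adjusted p = 1.9e-17 and 4.2e-18). In both genotypes it was the rise ranked 4 among the 11766 genes tested.

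Bcl3, which encodes a nuclear partner of p50 and p52 homodimers, rose from 6.03 ± 0.14 to 8.54 ± 0.21 in wild-type and from 6.02 ± 0.07 to 8.64 ± 0.12 in knockout cells. The change was 2.51 ± 0.09 (SE) and 2.62 ± 0.09, 5.71-fold and 6.14-fold (limma adjusted p = 2.0e-14 and 8.1e-15). Wild-type IL-33 arrays ran from 8.19 to 8.74 and knockout arrays from 8.45 to 8.75, so the genotypes overlapped.

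For all members but Rela the wild-type IL-33 arrays lay wholly above the wild-type untreated arrays, 8 of 9, and for all 9 this held in knockout cells. Over all genes tested, 10.7% had IL-33 arrays wholly above untreated arrays in wild-type cells and 13.5% in knockout cells. In order of level, the 2 IL-33 groups thus came above the 2 untreated groups for each member by group mean. The untreated neighbours overlapped for every member. The IL-33 neighbours were parted without overlap for Rel, Nfkbie and Nfkbiz.

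**Figure D2:**
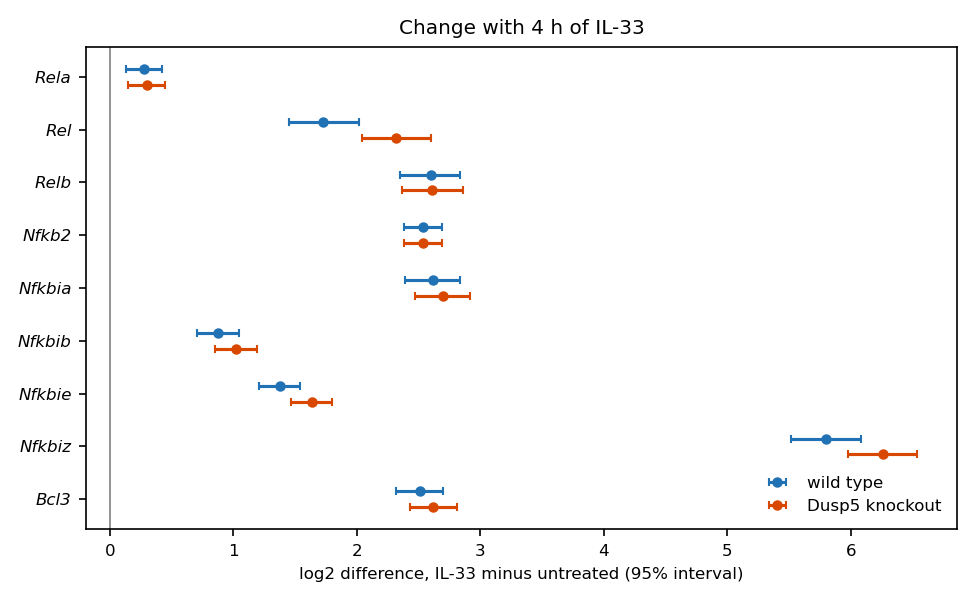
Change of each member with IL-33 as the log2 difference from untreated (x axis), in wild-type and knockout cells, with 95% intervals from the linear model. All intervals lie above 0, from Rela at 0.28 and 0.30 to Nfkbiz at 5.80 and 6.26, and the wild-type and knockout points lie farthest apart for Rel, Nfkbiz and Nfkbie.

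Without IL-33, no member was called different between the genotypes. The 9 differences, knockout minus wild type, ran from -0.23 for Nfkbiz to 0.13 for Rel on the log2 scale, and limma's adjusted p from 0.384 to 0.990. None reached an unadjusted p under 0.05, which 12.9% of all genes did. Over all genes 0.0255% were called in this comparison, that is 3 of 11766. The 95% intervals bound how large a difference could be present. For Nfkbia the difference was -0.22, with an interval from -0.44 to 0.01, and for Nfkbiz it was -0.23, with an interval from -0.51 to 0.05. Bcl3 had a difference of -0.00, with an interval from -0.19 to 0.19.

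After IL-33, Rel was higher in knockout than in wild-type cells, by 0.71 ± 0.13 on the log2 scale (SE), or 1.63-fold. Limma's adjusted p was 0.0138, and all 5 knockout arrays lay above all 5 wild-type arrays, with a gap of 0.05. It was the only 1 of the 9 members to be called, against 2.21% of all genes and 0.986% of all genes in the upward direction. The call was lost when only the IL-33 arrays were fitted (adjusted p = 0.0680) and when the array of wild-type IL-33 mouse 5, the lowest of its group, was left out (difference 0.62, adjusted p = 0.0553). The all-gene share moved as well: without the array of wild-type IL-33 mouse 2, 1659 genes were called in place of 260, and without that of mouse 5, 33.

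Nfkbie was 0.30 ± 0.08 higher in knockout cells after IL-33 (SE), 1.23-fold, and missed the threshold at an adjusted p of 0.0528 in limma. Its 95% interval ran from 0.13 to 0.47, and its groups did not overlap, with a gap of 0.05. With the mouse as a random replicate block the same difference had an adjusted p of 0.0458, which made 2 of 9 members called, beside 4.37% of all genes in that fit. Without the array of wild-type IL-33 mouse 2 the difference was 0.35 (adjusted p = 0.0131).

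Nfkbiz was 0.23 ± 0.13 higher in knockout cells after IL-33 (SE). Its interval ran from -0.05 to 0.51, and limma's adjusted p was 0.307. The SE, interval and p rest on 1 spread shared by all 4 groups. The SDs of Nfkbiz were 0.36 and 0.24 in untreated wild-type and knockout arrays, and 0.03 and 0.13 in the IL-33 arrays. Over all refits limma's adjusted p ran from 0.134 to 0.474. Although Nfkbiz was not called, its IL-33 groups did not overlap either (gap of 0.09). Thus 3 of 9 members had knockout IL-33 arrays wholly above the wild-type ones, beside 1.36% of all genes tested. The remaining 6 members had differences from -0.13 for Nfkbia to 0.13 for Rela and Relb, with adjusted p from 0.258 to 0.659. Intervals of these members were not narrow. That of Relb ran from -0.12 to 0.37 and that of Nfkbia from -0.36 to 0.09. The median difference of the 9 members was 0.13, beside -0.03 over all genes.

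**Figure D3:**
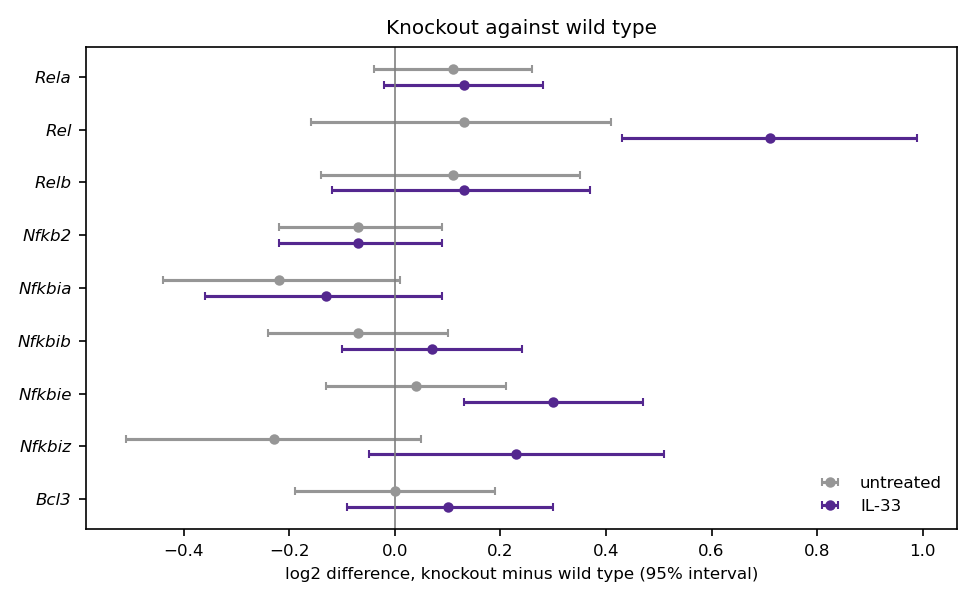
Difference between genotypes for each member, knockout minus wild type on the log2 scale (x axis), in untreated and in IL-33 cells, with 95% intervals from the linear model. After IL-33 the interval of Rel runs from 0.43 to 0.99 and that of Nfkbie from 0.13 to 0.47, and all untreated intervals include 0.

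The difference between the genotypes' responses asks whether IL-33 raised a member more in 1 genotype than in the other. The IL-33 arrays it rests on are those of the comparison after IL-33, so the figures are not independent of it. Rel rose by 0.58 ± 0.19 more in knockout than in wild-type cells (SE, 95% interval 0.18 to 0.98). Its single-mouse rises were 1.94, 1.94, 1.36, 2.04 and 1.39 in wild-type and 2.35, 2.08, 2.58, 2.41 and 2.16 in knockout mice. Every knockout mouse thus rose more than every wild-type mouse, with 2.08 against 2.04 at the boundary. The share of all genes with such a separation of single-mouse rises was not counted. Over all genes tested, however, limma's adjusted p was 0.778, and the greater rise of Rel was not called. The main fit did not use the pairing of arrays by mouse. With the mouse as a random block limma's adjusted p for Rel was 0.0909, the lowest of the refits and still not called.

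Nfkbiz rose by 0.46 ± 0.19 more in knockout cells (SE, interval 0.06 to 0.86, limma adjusted p = 0.936). Its single-mouse rises were 5.71, 5.35, 5.63, 6.11 and 6.20 in wild-type and 6.30, 6.33, 6.78, 6.06 and 5.83 in knockout mice, and the genotypes overlapped. Nfkbie rose by 0.26 ± 0.11 more (interval 0.02 to 0.50, adjusted p = 0.978). Its rises were 1.30, 1.55, 1.44, 1.41 and 1.19 in wild-type and 1.83, 1.67, 1.67, 1.53 and 1.48 in knockout mice, which overlapped as well.

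For the other 6 members the response differed by -0.00 (Nfkb2) to 0.14 (Nfkbib), each with an adjusted p of 0.999. The intervals of Nfkb2, from -0.22 to 0.22, and of Rela, from -0.18 to 0.24, bound how far their responses could differ. At an unadjusted p under 0.05 there were 3 of 9 members, Rel, Nfkbiz and Nfkbie, against 4.83% of all genes. At the adjusted threshold 0 of 9 members were called, and 0% of all genes.

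**Figure D4:**
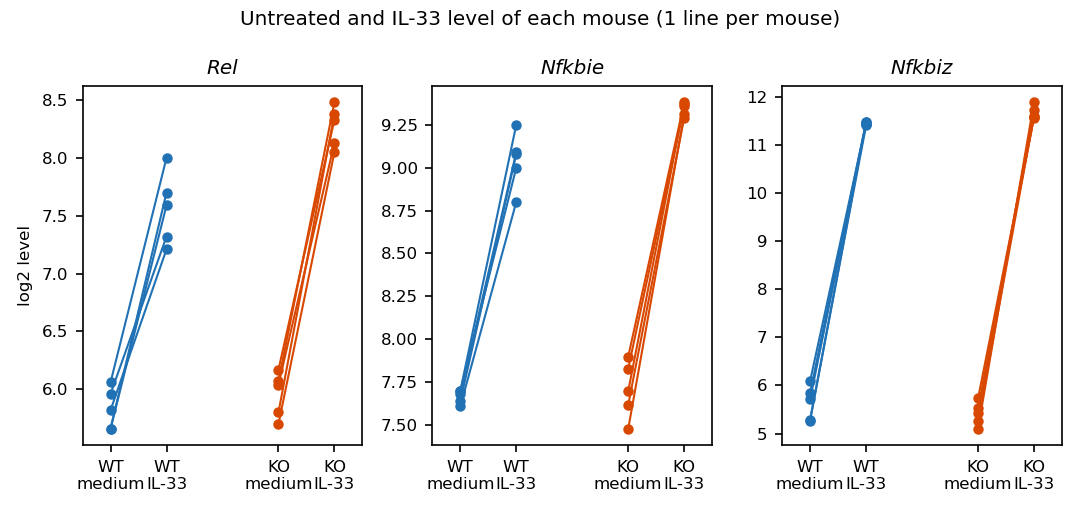
Log2 level of Rel, Nfkbie and Nfkbiz (y axis, 1 panel per gene) in untreated and IL-33 cells (x axis), with 1 line per mouse joining its pair of arrays and colours for genotype. Every line rises, and the knockout lines end above the wild-type lines in the 3 panels, by gaps of 0.05, 0.05 and 0.09.

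Upstream of the IkB proteins, genes of the IkB kinase complex and its activators were called near the all-gene share in both directions together. Of 12 listed genes 11 were tested, and with IL-33 4 rose and 2 fell in wild-type and 5 rose and 2 fell in knockout cells, with median changes of 0.15 and 0.13. Beside these 6 and 7 of 11 called, 42.7% and 52.2% of all genes were called. Counted in both directions, the calls thus say nothing particular of the list. Upwards alone, the 4 and 5 of 11 stood beside 16.1% and 18.9% of all genes. Downwards, the 2 of 11 in each genotype stood beside 26.7% and 33.2%. Map3k8, a kinase that binds p105 and activates the ERK pathway, lay on average below the 40th percentile in untreated cells and rose at least 9.93-fold in wild-type and at least 11.1-fold in knockout cells. Ikbke, a kinase related to the IkB kinases, rose by 2.68 ± 0.10 and 2.81 ± 0.10 on the log2 scale (SE). Ikbkb, the main catalytic subunit of the classical complex, rose by 0.40 ± 0.09 and 0.39 ± 0.09, and Map3k7, which encodes the activating kinase TAK1, by 0.35 ± 0.07 and 0.44 ± 0.07. Map3k3 fell, with changes of -0.54 ± 0.13 and -0.73 ± 0.13. The other calls, named after their values were seen, were Tab1 (-0.32 ± 0.08 and -0.30 ± 0.08), which lost its calls with quantile normalization, and Tbk1 in knockout cells (0.31 ± 0.06). In wild-type cells Tbk1 changed by 0.15 ± 0.06 (limma adjusted p = 0.0505), which 8 of the alternatives brought under the threshold. Ikbkg, the regulatory subunit NEMO, changed by 0.17 ± 0.14 in wild-type cells and was not called. No gene of this list was called between genotypes after IL-33, although 1 was without the array of wild-type IL-33 mouse 2 or of knockout IL-33 mouse 1.

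Genes of IkB ubiquitination gave few calls. Of 8 listed genes 6 were tested, and 1 rose in wild-type and 2 in knockout cells, with none falling. Of all genes 16.1% and 18.9% were called upwards, and 42.7% and 52.2% in both directions together. Fbxw11, an F-box protein that recognises phosphorylated IkB, rose by 0.46 ± 0.07 and 0.50 ± 0.07 (SE). Cul1, the scaffold of that ligase, rose in knockout cells by 0.23 ± 0.09 (limma adjusted p = 0.0450), a call that ended when any of 11 single arrays was left out or the filter on dim genes dropped. Skp1 and Nedd8 changed by 0.02 ± 0.09 and -0.03 ± 0.05 in wild-type cells and were not called.

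Of 13 other IkB-like and NF-kB-binding proteins 10 were tested, and 2 rose and 3 fell in wild-type, 3 rose and 4 fell in knockout cells. The 5 and 7 of 10 called stood beside 42.7% and 52.2% of all genes. Nfkbid encodes IkB-NS, a further nuclear IkB that is not on the list of 10. It rose by 0.91 ± 0.10 in wild-type and 1.27 ± 0.10 in knockout cells (SE). Its IL-33 arrays ran from 8.30 to 8.79 in wild-type and from 9.01 to 9.18 in knockout cells, with no overlap. The difference of 0.47 ± 0.10 was called (limma adjusted p = 0.0238). That call ended when only the IL-33 arrays were fitted (adjusted p = 0.0579), and when any of wild-type IL-33 mice 1, 3, 4 and 5 or knockout IL-33 mice 2, 3, 4 and 5 was left out (0.0516 to 0.0656). Nkrf, a repressor of NF-kB targets, rose by 0.55 ± 0.10 and 0.62 on the log2 scale, and Nfkbil1 fell, with changes of -0.66 ± 0.10 and -0.77. Commd1 (-0.29 and -0.27) and Nkap (-0.17 and -0.23) fell in both genotypes, and in knockout cells Nkiras1 rose (0.34) and Nkiras2 fell (-0.21). Nkap and Nkiras2 were named after their values were seen. The calls of Commd1 and Nkap in both genotypes and of Nkiras2 were lost with quantile normalization. In wild-type cells the call of Nkap (limma adjusted p = 0.0449) was also lost when any of 14 single arrays was left out, and that of Commd1 with 2, untreated mouse 1 and IL-33 mouse 2. In knockout cells that of Commd1 was lost without untreated mouse 5 or IL-33 mouse 4 or 5. With the mouse as a fixed or random replicate block 8 of the 10 were called in wild-type cells in place of 5, beside 57.8% and 56.9% of all genes in place of 42.7%. Without the array of wild-type IL-33 mouse 2 it was 3 of 10, beside 39.7%.

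Genes known as NF-kB targets outside the family rose as a rule. Of 25 listed 21 were tested, and 18 rose in each genotype, while 1 fell in wild-type and 2 in knockout cells, with median changes of 1.68 and 2.18. Of all genes 16.1% and 18.9% rose. Ptgs2, the inducible cyclooxygenase, rose at least 185-fold and at least 341-fold from untreated levels below the percentile. The chemokine gene Cxcl2 rose by 6.48 ± 0.23 and 7.01 ± 0.23 on the log2 scale (SE). The cytokine gene Il1b rose by 6.22 ± 0.18 and 6.84 ± 0.18, and Il6 by 5.06 ± 0.10 and 5.30 ± 0.10. The genes that fell, named after their values were seen, were Irf1 in both genotypes (-0.66 ± 0.10 and -0.84) and Ccnd1 in knockout cells (-0.54 ± 0.19). The Ccnd1 call was lost with quantile normalization (-0.40) and when either of 2 untreated or 2 IL-33 knockout arrays was left out. Cyld, a deubiquitinase of the pathway, changed by 0.08 ± 0.14 in wild-type cells and was not called.

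Between genotypes after IL-33, 1 of these 21 targets was called, beside 2.21% of all genes. Csf2, which encodes the eosinophil survival factor GM-CSF, was 1.70 ± 0.26 higher in knockout cells (SE, limma adjusted p = 0.00232), and the call was lost when only the IL-33 arrays were fitted (adjusted p = 0.0554). Tnf had a difference of 0.75 ± 0.20 and an adjusted p of 0.0504, and passed the threshold in 7 alternatives, the random replicate block among them (0.0445). Without the array of wild-type IL-33 mouse 2, 5 targets were called in place of 1, beside 14.1% of all genes in place of 2.21%.

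A narrower list held genes known in other cells to need IkB-zeta or Bcl3. Of 10 such genes 7 were tested, and 6 rose and 0 fell with IL-33 in each genotype. The medians of those tested were 1.34 and 1.77, and 16.1% and 18.9% of all genes rose. Il10, Il12b and Il17a did not pass the filter, with mean log2 levels of 3.02, 2.12 and 3.13 in wild-type IL-33 cells. In knockout IL-33 cells these were 3.04, 2.20 and 3.19. A gene dim without IL-33, as Csf2 was, could enter only if bright with IL-33. The share of tested genes that rose is therefore partly set by the filter. With Csf2 at its bound the wild-type median was 1.14. Il6, Ccl2 and Csf2 are on the list of targets too. Ccl2 rose by 2.59 ± 0.11 and 2.40 ± 0.11 (SE), and Csf2 at least 2.03-fold and at least 6.59-fold from untreated levels below the percentile. Csf3 changed by 0.17 ± 0.10 in wild-type cells and was not called. Beside these, a list of 6 tested housekeeping genes had medians of 0.05 and 0.07. Of the 6, 2 were called in wild-type and 3 in knockout cells, beside 42.7% and 52.2% of all genes. Sdha fell (-0.42 ± 0.07 and -0.60 ± 0.07), B2m rose (0.17 and 0.22), and Ywhaz rose in knockout cells (0.55 ± 0.19). The wild-type call of B2m was lost in 9 alternatives, 7 of them single arrays left out, and the call of Ywhaz without untreated knockout mouse 1.

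The members were also compared by how they varied within groups. Each array's deviation from its group mean was correlated between members over the 20 arrays, which share mice, culture and array processing, so the values are descriptions with no test. Of 36 pairs 24 had a correlation above 0, and the range was -0.62 to 0.85 with a median of 0.23. Some pairs, though not all, changed sign between the 10 untreated and the 10 IL-33 arrays. Nfkbiz had 0.41 and -0.67 with Rela, and 0.54 and -0.63 with Relb. Nfkbia and Nfkbib had -0.47 and 0.51. Rela and Bcl3 were closest (Pearson r = 0.85, Spearman rho = 0.87), with 0.79 among untreated and 0.91 among IL-33 arrays. Rela and Relb followed with r = 0.79 and rho = 0.86. Rel and Nfkbie went together at r = 0.69 (rho = 0.58), falling to 0.49 without the 2 arrays farthest from the median of Rel. Nfkbia ran against Rela (r = -0.62), Nfkbie (r = -0.52) and Rel (r = -0.51). Arrays that were high for Rela and Rel within their group thus tended to be low for Nfkbia.

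**Figure D5:**
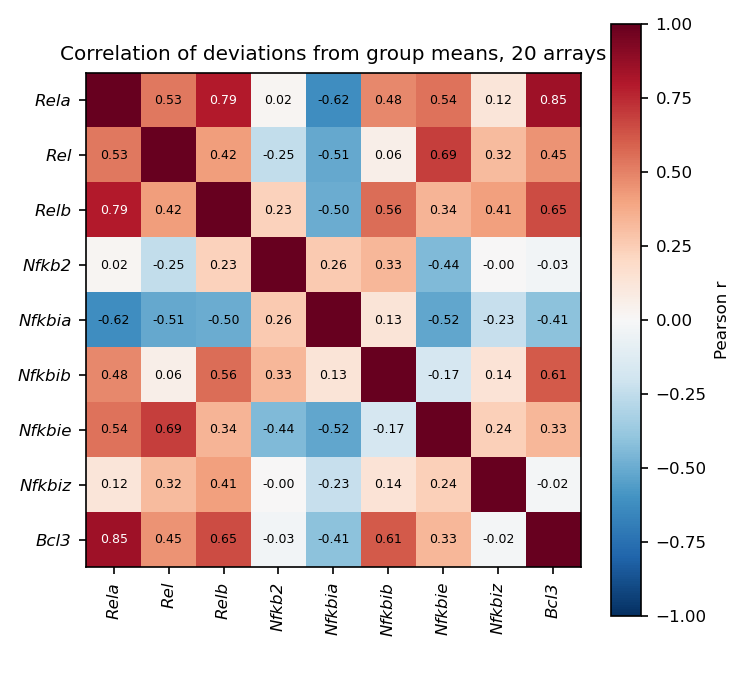
Pearson correlation (colour scale from -1 to 1) between the 9 measured members, each as the deviation of an array from its group mean over 20 arrays. Rela, Relb and Bcl3 form the block of high values, up to 0.85, and the row of Nfkbia holds the lowest values, down to -0.62.

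By the same measure, the tested genes most like each member were named without regard to function. They were Fyb (0.93) and Irf1 (0.93) for Rela, Atp6v0a2 (0.88) and Rhoh (0.88) for Rel, and Pald1 (0.86) and Tm6sf2 (0.86) for Relb. For Nfkb2 they were Apc (0.83) and Commd9 (0.82), for Nfkbia Nup155 (0.92) and Abcb6 (0.91), and for Nfkbib Zmat5 (0.85) and Dhx8 (0.84). For Nfkbie they were 0610009L18Rik (0.86) and Tmem62 (0.86), for Nfkbiz S1pr1 (0.76) and 2810021J22Rik (0.76), and for Bcl3 Abcc2 (0.97) and Hlx (0.96). Bcl3 had the closest neighbours of the 9 and Nfkbiz the least close. These are the highest of many correlations per member and share mice and arrays, so high values can arise without any link between the genes.

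The cells expressed the defining genes of eosinophils. Of 9 listed markers 6 had a probe set, and Epx, Prg2, Prg3, Siglecf, Ccr3 and Il5ra were above the 40th percentile on all 20 arrays. Their mean log2 level per array was 11.19 to 11.35 in untreated wild-type and 11.19 to 11.43 in untreated knockout cells. With IL-33 the corresponding ranges were 10.83 to 11.07 and 10.82 to 11.01, so the list was lower with treatment and intermingled between genotypes. Il5ra (-0.84 ± 0.16 in wild-type and -1.08 ± 0.16 in knockout cells, SE) and Siglecf (-0.71 ± 0.15 and -0.61 ± 0.15) fell. The granule protein genes Epx, Prg2 and Prg3 were not called and had changes of -0.05, -0.00 and -0.03 in wild-type and -0.08, 0.02 and -0.10 in knockout cells. Markers of other myeloid cells were present too. The 9 neutrophil markers averaged 8.72 to 9.44 in wild-type and 8.64 to 9.39 in knockout IL-33 arrays. Their gene means in wild-type IL-33 cells ran from 5.73 for Elane to 12.55 for S100a9. The 10 markers of monocytes, macrophages and dendritic cells averaged 8.04 to 8.47 and 7.84 to 8.43. Their gene means in wild-type IL-33 cells ran from 4.85 for Cd209a to 12.07 for Adgre1. Those of the eosinophil markers ran from 7.49 for Il5ra to 13.82 for Prg2. The mast cell and basophil list averaged 7.05 to 7.33 and 6.99 to 7.24. Its gene means in wild-type IL-33 cells ran from 3.34 for Tpsab1 to 12.55 for Cpa3, with Mcpt8 at 11.46 and Fcer1a at 10.26. Mcpt4 was below the percentile on all arrays. The lymphocyte list averaged 3.64 to 4.30 and 3.69 to 3.88, with Ms4a1 and Gzma below it throughout. The erythroid and megakaryocyte list averaged 6.57 to 6.92 and 6.49 to 6.57, the knockout arrays at or below the wild-type ones. Its gene means in wild-type IL-33 cells ran from 2.94 for Hba-a1 to 11.42 for Pf4, with Itga2b at 10.30. Hba-a1 and Alas2 were below the percentile throughout. No marker of these lists was called between genotypes after IL-33, beside 2.21% of all genes. With IL-33, 0 of 9 neutrophil markers were called in either genotype, beside 42.7% of all genes in wild-type and 52.2% in knockout cells. Of 10 monocyte, macrophage and dendritic cell markers 2 rose in each genotype, and 2 fell in wild-type and 4 in knockout cells. Of all genes 16.1% and 18.9% rose, and 26.7% and 33.2% fell. Of 7 tested mast cell and basophil markers Ms4a2 rose (0.65 and 0.91), and Fcer1a (-0.43 and -0.48) and Mcpt8 (-0.33 and -0.36) fell in both genotypes, with Kit falling in knockout cells (-1.07). Of 4 tested lymphocyte markers Cd3e rose in wild-type cells (0.26), and of 4 tested erythroid and megakaryocyte markers Klf1 fell in knockout cells (-0.37). The part of other cells in the levels of Rel, Nfkbie or the other members was not tested.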

How the data were processed

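Biotin-labelled cRNA was hybridised to 1-colour Affymetrix arrays, per the labels' protocols. The deposited table holds log2 values of 20630 probe sets on 20 arrays, from 1.27 to 13.99. The log2 unit was read from the values, and the sources used here do not give the background correction, summarization and normalization behind it. Any scaling between arrays that was applied before deposit enters every difference.

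Groups came from the treatment and genotype labels, because the titles of the IL-33 samples do not name the treatment. Gene symbols came from the platform annotation: 17826 probe sets had 1 symbol, 91 several, 2711 none, and 2 were controls. Of those with 1 symbol, 17675 were matched by gene number to RefSeq (GRCm38.p6). For 54 genes with several probe sets the one with the highest mean was used.

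Limma 3.58.1 in R 4.3.3 fitted 1 mean per group to all 20 arrays (16 residual degrees of freedom). P-values were adjusted by Benjamini-Hochberg over the 11766 tested genes and called under 0.05. The script was tested on simulated data with independent arrays, for the IL-33 comparison in wild-type cells only. Arrays paired by mouse and the comparisons between genotypes were not simulated. Where a gene's untreated mean lay below the percentile, arrays under it were set to it and the fold is a lower bound. This percentile stands in for background. Tables and plots were made with Python 3.11.15.

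The text names all members, Dusp5, up to 4 called and 2 uncalled genes per list and comparison, and the 2 genes most like each member. The lists were the IkB kinase complex, IkB ubiquitination, other IkB-like proteins, known targets, genes needing IkB-zeta or Bcl3, housekeeping genes and markers of 6 cell types. The members and lists were chosen with earlier results of these data known, so their counts are not independent evidence.

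The series text names 5 mice per genotype. The pair of arrays that shared a replicate number within a genotype deviated together (r = 0.262 to 0.783, the best match for 10 of 10), and the number was used as the mouse. No pair of arrays held identical values (0 pairs). Alternatives were no filter on dim genes, a 60th percentile filter, added quantile normalization, only the groups compared, the mouse as a fixed or random block, a variance trend, and each array left out in turn.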

Additional observations from a re-analysis of the deposited data

How the results depend on the processing

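The rise of all 9 members with IL-33 was called in both genotypes under every alternative run, and no member was called between untreated genotypes or in the difference of responses under any. After IL-33 the number of members called between genotypes was 1, beside 2.21% of all genes. It became 2 with the 60th percentile filter (5.34% of all genes), the random replicate block (4.37%) and a variance trend (2.46%). It became 0 with only the groups compared (0.204%). When single arrays were left out it ran from 0 to 2, beside 0.281% to 14.1% of all genes. The difference of Rel stayed between 0.62 and 0.82 in these refits, with an adjusted p from 0.00178 to 0.0680. That of Nfkbie lay between 0.24 and 0.35, with an adjusted p from 0.0131 to 0.138. It passed with the 60th percentile filter (0.0354), the variance trend (0.0452), and without knockout IL-33 mouse 1 (0.0366), untreated knockout mouse 1 (0.0421) or wild-type IL-33 mouse 2 (0.0131).

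The random replicate block (consensus correlation 0.46) changed no other call of a member. In the difference of responses it called 26 genes in place of 0, no member among them, and gave Rel an adjusted p of 0.0909, Nfkbie 0.200 and Nfkbiz 0.245. The fixed replicate block gave 0.165, 0.241 and 0.310. Over all genes, the comparison after IL-33 called 260 of 11766 genes, 514 with the random block and 24 with only the groups compared. With the 60th percentile filter it called 444 of 8307 genes tested, and with no filter 152 of 17771. It called 1659 without wild-type IL-33 mouse 2, 1049 without knockout IL-33 mouse 1, 33 to 60 without another wild-type and 55 to 82 without another knockout IL-33 mouse. It called 158 to 188 without untreated wild-type mouse 1, 4 or 5 or untreated knockout mouse 2, 3, 4 or 5. It called more, 362, 334 and 267, without untreated wild-type mouse 2, untreated wild-type mouse 3 and untreated knockout mouse 1. The untreated comparison called 3 genes, 2 with the 60th percentile filter, and 15 and 5 without untreated wild-type mouse 2 and untreated knockout mouse 5. The cause of these shifts was not tested.

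Small differences that were never called changed sign. For untreated Bcl3 the genotype difference was 0.04 with quantile normalization and -0.05 to 0.04 with single arrays left out. Under the same leave-outs the untreated difference of Nfkbie ran from -0.01 to 0.10, and the IL-33 difference of Nfkbib from -0.02 to 0.11. The response differences ran from -0.04 to 0.04 for Nfkb2, -0.02 to 0.06 for Rela and -0.08 to 0.10 for Relb. The choice between probe sets of a gene gave no alternative, since no member had more than 1, and the difference of responses uses all groups. Quantile normalization moved the median of all genes by less than 0.1. Background levels of the arrays were not used here, so signal over background is unknown.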
